A study of Homo sapiens with 10 samples.

Results

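The ZIC genes encode zinc finger transcription factors named after their expression in the cerebellum, and 4 of them, ZIC1, ZIC2, ZIC4 and ZIC5, were followed here in a human embryonic stem cell line. They were taken by their Ensembl identifiers from a table of 55841 genes counted by bulk RNA sequencing, and all 4 had counts in all 10 libraries. Of these libraries 5 came from the general population, that is unsorted cells, and 5 from the fraction sorted for the highest EPCAM, GCTM2 and CD9, called HHH. The labels name the cells HES9 and give mTESR1 medium on matrigel for every library, with no allele or agent attached to any of them. The study's text names WA09 cells, and the deposit's design text mentions protein kinase C inhibitors that no library label carries, and neither point was resolved here. Batch 1 held general replicates 1 and 2 and HHH replicates 2 and 3, and batch 2 held replicates 1, 2 and 3 of each. The cells are 1 line, and nothing in the labels says that the replicates were separate cultures, so p-values measure the spread between these libraries, which may be technical.

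ZIC proteins carry a zinc finger domain related to that of the GLI proteins, the effectors of Hedgehog signalling, and they bind DNA and partner proteins through it. In the embryo they act in the neural plate, the dorsal neural tube, the neural crest and the cerebellum. ZIC2 is also known as an enhancer-binding factor of pluripotent cells, and its loss causes holoprosencephaly, while combined deletion of ZIC1 and ZIC4 has been linked to Dandy-Walker malformation. The genes lie in head-to-head pairs, in which both members are transcribed away from a shared interval.

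ZIC1 (ENSG00000152977) and ZIC4 (ENSG00000174963) form the pair on chromosome 3, and ZIC2 (ENSG00000043355) and ZIC5 (ENSG00000139800) the pair on chromosome 13. In GENCODE 44 on GRCh38, ZIC1 spans 147393422 to 147510293 on the plus strand with 6825 exonic bases, and ZIC4 spans 147386046 to 147406809 on the minus strand with 8517. ZIC2 spans 99981784 to 99986765 on the plus strand with 3290 exonic bases, and ZIC5 spans 99962964 to 99971767 on the minus strand with 4497. The counts themselves were made on GRCh37, so these coordinates describe the genes and not the deposited values. The nearest RefSeq start sites of ZIC1 and ZIC4 were 2822 bases apart, and those of ZIC2 and ZIC5 were 9875 bases apart. ZIC1 and ZIC4 exons overlapped by 176 bases on opposite strands in GENCODE 44, and whether the counting used strand was not stated, so reads from that stretch cannot be told apart. It made up 2.58% of the exonic bases of ZIC1 and 2.07% of those of ZIC4. No stretch of 50 bases was shared between the transcripts of any pair of the 4 genes, and at 25 bases the most were 32 of 6820 in ZIC1, shared with ZIC2.

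The promoters of both pairs are shown because the members of each pair start near each other and were compared within libraries. Each runs from 250 bases before the RefSeq start site to 50 bases after it, read 5′ to 3′ on the gene's own strand of GRCh38.p14, and where RefSeq lists several starts the one nearest to the partner gene was used. Capitals mark the CCAAT box (CCAAT) and the GC box (GGGCGG) on either strand. The windows are chr3:147409115-147409414 on the plus strand for ZIC1, chr3:147406494-147406793 on the minus strand for ZIC4, chr13:99981534-99981833 on the plus strand for ZIC2 and chr13:99971860-99972159 on the minus strand for ZIC5.
ZIC1: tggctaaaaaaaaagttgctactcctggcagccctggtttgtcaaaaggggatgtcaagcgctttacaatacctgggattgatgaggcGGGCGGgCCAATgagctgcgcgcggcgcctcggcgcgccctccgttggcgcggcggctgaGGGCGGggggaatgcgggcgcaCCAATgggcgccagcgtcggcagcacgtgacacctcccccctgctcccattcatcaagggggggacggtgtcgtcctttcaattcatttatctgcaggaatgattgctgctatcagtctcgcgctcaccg
ZIC4: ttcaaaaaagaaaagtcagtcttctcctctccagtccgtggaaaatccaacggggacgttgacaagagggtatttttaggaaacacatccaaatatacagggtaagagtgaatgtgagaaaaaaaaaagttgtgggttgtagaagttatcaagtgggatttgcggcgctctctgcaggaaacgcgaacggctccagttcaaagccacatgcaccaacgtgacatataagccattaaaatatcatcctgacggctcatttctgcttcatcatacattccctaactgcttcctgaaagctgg
ZIC2: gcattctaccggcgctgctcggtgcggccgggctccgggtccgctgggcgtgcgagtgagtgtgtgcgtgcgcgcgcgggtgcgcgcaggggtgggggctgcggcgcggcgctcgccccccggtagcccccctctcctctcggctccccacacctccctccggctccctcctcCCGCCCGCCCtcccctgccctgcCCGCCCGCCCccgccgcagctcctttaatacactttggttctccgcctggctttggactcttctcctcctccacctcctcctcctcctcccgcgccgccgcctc
ZIC5: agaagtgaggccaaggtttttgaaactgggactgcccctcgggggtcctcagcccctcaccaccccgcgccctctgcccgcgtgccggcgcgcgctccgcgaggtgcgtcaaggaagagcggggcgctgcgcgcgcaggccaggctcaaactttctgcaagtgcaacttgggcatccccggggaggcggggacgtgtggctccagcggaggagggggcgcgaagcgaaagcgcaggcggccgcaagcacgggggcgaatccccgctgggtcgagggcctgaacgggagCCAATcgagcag

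The ZIC1 window held 2 CCAAT boxes and 2 GC boxes on the gene's strand, and the ZIC4 window held neither. The ZIC2 window held 4 GC boxes on the opposite strand, in 2 overlapping runs, and the ZIC5 window held 1 CCAAT box. A CCAAT box was found in 34.6% of 35116 RefSeq promoter windows of the same length, and a GC box in 45.0%. The TATA box (TATAAA), a ZIC core (CCTGCTG) and a GLI core (GGGTGGTC) were also searched on both strands and matched none of the 4 windows. They were present in 11.5%, 10.5% and 0.974% of all windows. Content of G and C was 61.3% in ZIC1, 43.3% in ZIC4, 75.0% in ZIC2 and 70.3% in ZIC5, against a median of 58.7% over all windows. The observed to expected ratio of CpG was 0.925, 0.710, 0.887 and 0.898 in the same order, with a median of 0.579 over all windows. The ZIC4 window was therefore the only one of the 4 below the median in G and C, and all 4 were above it in CpG ratio.

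Library totals ran from 47242595 to 78503395 counts, and 3 counts, taken as the floor of detection for counting error alone, stood for 0.0460 to 0.0687 CPM, that is counts scaled to a common TMM-corrected library size. Among 23552 tested genes, 1373 passed an adjusted p under 0.05 in edgeR's quasi-likelihood test of HHH against general with batch as a term, and 701 of them exceeded 1.5-fold. RNA of EPCAM, a sort antigen, was higher in HHH (196 ± 42.0 against 148 ± 37.2 CPM, SD, n = 5, edgeR adjusted p = 0.00645), and that of CD9 was 84.0 ± 10.6 against 71.3 ± 23.2 CPM (adjusted p = 0.195). The pluripotency genes POU5F1, at 516 ± 30.9 CPM in general and 570 ± 72.6 in HHH, and LIN28A, at 2110 ± 279 and 1843 ± 334, were abundant in both populations.

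The 4 genes differed widely in level. Compared per length, ZIC2 was the most abundant in the general population, at 32.1 ± 6.39 CPM per kilobase of exon (SD, n = 5). ZIC5 followed at 6.81 ± 1.5, ZIC1 at 0.123 ± 0.0722 and ZIC4 at 0.0266 ± 0.00592 CPM per kilobase. No library of the general population broke this order, since the lowest ZIC1 value was 0.0516 and the highest ZIC4 value 0.0333. In HHH the order of means was the same, with ZIC2 at 25.8 ± 3.92, ZIC5 at 6.01 ± 0.502, ZIC1 at 0.0217 ± 0.0116 and ZIC4 at 0.0137 ± 0.00368 CPM per kilobase (SD, n = 5). There ZIC1 (0.0126 to 0.0414) and ZIC4 (0.0101 to 0.0187) overlapped and did not differ beyond their spread.

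ZIC1, a factor of the dorsal neural tube and the cerebellum, was lower in HHH. Its level in the general population was 0.444 and 0.352 CPM in batch 1 (replicates 1 and 2) and 0.677, 1.46 and 1.25 CPM in batch 2 (replicates 1, 2 and 3). In HHH it was 0.0858 and 0.114 CPM in batch 1 (replicates 2 and 3) and 0.155, 0.104 and 0.283 CPM in batch 2. Every HHH library was below every general library, in each batch and across them. The share of all tested genes whose populations separate in this way was not determined, here or for the other ZIC genes. These levels came from 21 to 83 counts per general library and 4 to 16 per HHH library, all above the floor of 3 counts. A count of 10 was reached in all 5 general libraries and in 1 HHH library, so ZIC1 passed the filter on low counts through the general population, in which it is high. The general libraries averaged 0.836 ± 0.492 CPM and the HHH libraries 0.148 ± 0.0793 CPM (SD, n = 5 each). The fitted log2 fold change was -2.46 ± 0.32 (SE), that is 5.52-fold lower, with an adjusted p of 0.000283 by edgeR's quasi-likelihood test. Over all tested genes 915, or 3.89%, were called lower. ZIC1 ranked 15 by size of the fitted decrease and 133 by p among all tested genes. The fall was present in both batches, at -1.98 ± 0.53 on the log2 scale in batch 1 and -2.64 ± 0.37 in batch 2. Batch 2 alone passed (adjusted p = 0.000656), and batch 1 alone did not (adjusted p = 0.180), where only 67 genes, or 0.282%, were called lower. The difference between the batches was not significant (-0.66, adjusted p = 0.676), and the call was kept when any of the 10 libraries was left out (adjusted p 0.000187 to 0.00223). In these bulk libraries, fewer ZIC1-expressing cells and less ZIC1 RNA per cell cannot be told apart.

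ZIC4, the partner of ZIC1 and likewise a gene of the dorsal neural tube and the cerebellum, was near the limit of detection. The general libraries had 15 and 12 counts in batch 1 and 9, 15 and 17 in batch 2, and the HHH libraries had 5 and 4 counts in batch 1 and 5, 8 and 9 in batch 2. On the scale of CPM this was 0.230 and 0.201, then 0.156, 0.263 and 0.283 in general, and 0.107 and 0.0916, then 0.0859, 0.138 and 0.159 in HHH. All 5 HHH libraries were under the general mean of their batch and 4 of 5 were under every general library, the exception being HHH replicate 3 of batch 2, which slightly exceeded general replicate 1 of the same batch. The means were 0.227 ± 0.0505 and 0.116 ± 0.0314 CPM (SD, n = 5). ZIC4 did not pass the filter on low counts, so it is not among the 23552 genes. Fitted without the filter it was -0.94 ± 0.39 on the log2 scale (adjusted p = 0.177). It was not called in this fit or in either batch, at -1.12 in batch 1 and -0.87 in batch 2. An exact permutation test of log2 CPM within batches, two-sided and chosen after the data had been seen, gave a difference of -0.97 with an unadjusted p of 0.0333, where 0.0167 is the smallest of 120 arrangements.

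ZIC2, the most abundant of the 4, was lower in HHH when batch 2 was fitted alone and did not pass with both batches together. In batch 1 it stood at 89.9 and 79.1 CPM in general and at 65.6 and 101 CPM in HHH. In batch 2 it stood at 110, 119 and 131 CPM in general and at 89.2, 86.3 and 82.0 CPM in HHH. The 2 HHH libraries of batch 1 lay on either side of both general libraries of that batch, whereas in batch 2 every HHH library was below every general one. The means were 106 ± 21.0 and 84.9 ± 12.9 CPM (SD, n = 5), which the fit put at -0.30 ± 0.12 on the log2 scale (SE), with an adjusted p of 0.166. Within batch 2 it was -0.49 ± 0.09 (adjusted p = 0.00357), in a fit that called 1933 genes, or 8.05%, lower. Within batch 1 it was -0.02 ± 0.19 (adjusted p = 0.975). Blocking on replicate number moved the difference to -0.43, and the call was gained (adjusted p = 0.0164). General replicate 1 and HHH replicate 3 of batch 1 have no partner and add nothing to the difference in that fit. The call was gained as well without HHH replicate 3 of batch 1 (-0.44, adjusted p = 0.00292). Both fits set that library aside, so they are not separate results. The interaction of batch and population was -0.46 (unadjusted p = 0.0397, adjusted p = 0.241), and 183 genes, or 0.777%, passed for that term. It turned on the HHH libraries of batch 1, at -0.74 (adjusted p = 0.0482) without replicate 2 and at -0.12 (adjusted p = 0.769) without replicate 3.

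ZIC5, the partner of ZIC2 and a gene of the neural crest, was likewise lower in HHH when batch 2 was fitted alone. In general it was 25.7 and 22.0 CPM in batch 1 and 31.5, 36.8 and 37.2 CPM in batch 2. In HHH it was 23.5 and 28.7 CPM in batch 1 and 28.1, 28.7 and 26.1 CPM in batch 2. The HHH libraries were within 23.5 to 28.7 CPM in both batches, and the general libraries of batch 2 were above all others. The means were 30.6 ± 6.73 and 27.0 ± 2.26 CPM (SD, n = 5), which the fit put at -0.16 ± 0.10 on the log2 scale (SE), with an adjusted p of 0.406. The sign differed between batches, at 0.13 ± 0.15 in batch 1 (adjusted p = 0.775) and -0.35 ± 0.09 in batch 2 (adjusted p = 0.0225). The interaction was -0.48 (unadjusted p = 0.0110, adjusted p = 0.159).

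**Figure D1:**
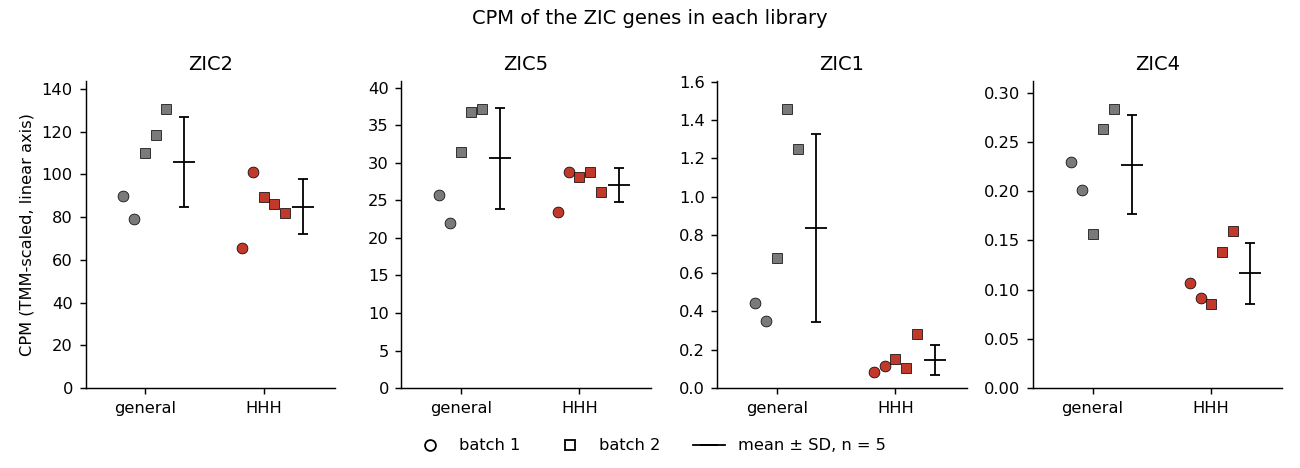
CPM of each gene (linear vertical axes that start at 0) in the general and HHH libraries, with circles for batch 1, squares for batch 2 and a bar for the mean and SD of the 5 libraries of a population. ZIC1 shows no overlap between populations, whereas ZIC2 and ZIC5 overlap through batch 1 and are separate in batch 2. The share of all genes without overlap was not determined.

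**Figure D2:**
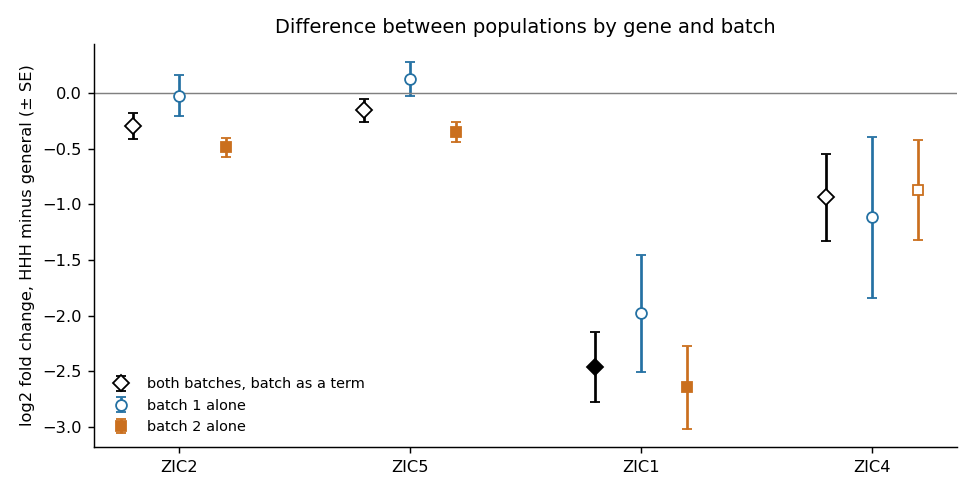
Fitted log2 fold change of HHH minus general with its SE (vertical axis) for each gene, with both batches (diamonds), batch 1 alone (circles) and batch 2 alone (squares), filled where the adjusted p was under 0.05. ZIC1 is filled with both batches and in batch 2, ZIC2 and ZIC5 in batch 2 only, and ZIC4, from the fit without a filter, nowhere.

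The general libraries of batch 2 stood above those of batch 1 in ZIC1, ZIC2 and ZIC5, without overlap. This contrast was not tested, and the share of all genes separated in this way was not determined. The TMM factors of the general libraries also differed, at 0.832 and 0.889 in batch 1 and 1.07 to 1.18 in batch 2. In general, ZIC2 averaged 84.5 ± 7.67 CPM in batch 1 (SD, n = 2) and 120 ± 10.3 in batch 2 (SD, n = 3), whereas in HHH it averaged 83.4 ± 25.1 and 85.8 ± 3.64. ZIC5 averaged 23.8 ± 2.63 and 35.2 ± 3.19 CPM in general, and 26.1 ± 3.69 and 27.6 ± 1.40 in HHH. ZIC1 averaged 0.398 ± 0.0652 and 1.13 ± 0.404 CPM in general, and 0.1001 ± 0.0203 and 0.180 ± 0.0923 CPM in HHH. ZIC4 overlapped between the batches in general, at 0.216 ± 0.0203 and 0.234 ± 0.0684 CPM.

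Ratios of counts within a library do not depend on the scaling of libraries, and 3 were compared by an exact permutation test, two-sided, of population labels within batches, with 0.5 counts added before the log. The log2 ratio of ZIC1 to ZIC4 was 0.93, 0.78, 2.06, 2.43 and 2.11 in the general libraries (batch 1 replicates 1 and 2, then batch 2 replicates 1, 2 and 3). In HHH it was -0.29 and 0.29 in batch 1 and 0.79, -0.39 and 0.80 in batch 2. The populations were separate within each batch, and the difference was -1.42 (exact p = 0.0167, adjusted over the 3 ratios 0.0250). ZIC1 counts thus fell by more than those of its neighbour, with -0.86 in batch 1 and -1.80 in batch 2. The log2 ratio of ZIC2 to ZIC1 averaged 7.16 ± 0.62 in general and 9.18 ± 0.62 in HHH (SD, n = 5), a difference of 2.02 (exact p = 0.0167, adjusted 0.0250), with no overlap of populations (6.34 to 7.78 against 8.14 to 9.65). For each of these ratios the exact p of 0.0167 is the smallest that the 120 arrangements allow. The ZIC2 to ZIC1 ratio largely restates the difference in ZIC1 and is not a separate result. ZIC1 alone separated the populations, with a fitted log2 fold change of -2.46 against -0.30 for ZIC2.

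The log2 ratio of ZIC2 to ZIC5 varied far less. It was 1.81, 1.85, 1.81, 1.69 and 1.81 in the general libraries in the order above, and 1.48, 1.82, 1.66, 1.59 and 1.65 in HHH. ZIC2 had on average 3.47 ± 0.144 counts for each ZIC5 count in general and 3.13 ± 0.268 in HHH (SD, n = 5). The difference was -0.15 on the log2 scale (exact p = 0.0333, adjusted over the 3 ratios 0.0333), with the populations separate in batch 2 and overlapping in batch 1. It was -0.093 (exact p = 0.05) without HHH replicate 2 of batch 1, and the exact p was between 0.0667 and 0.1 without either general library of batch 1 or any HHH library of batch 2. It was 0.0167 without HHH replicate 3 of batch 1 and 0.0333 without any 1 general library of batch 2.

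**Figure D3:**
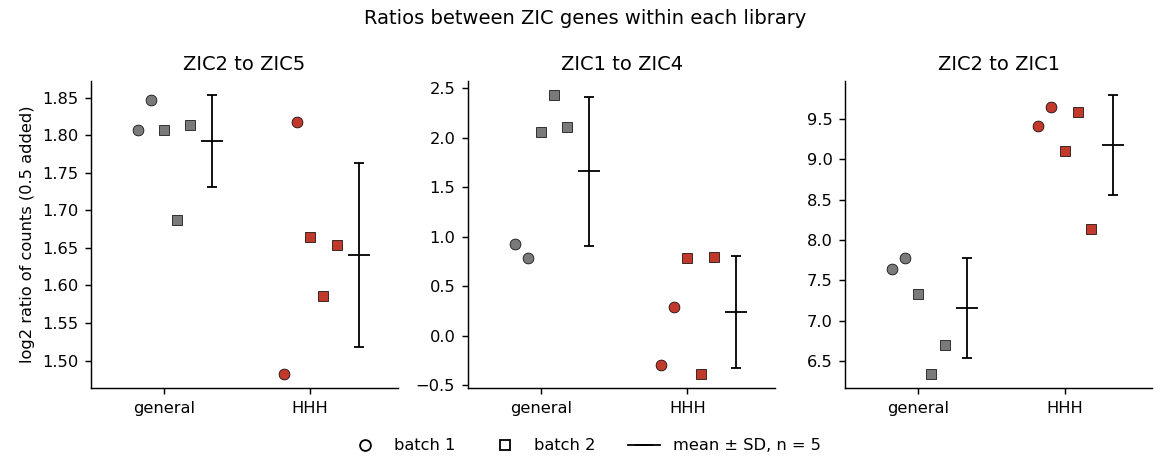
Log2 ratio of counts (vertical axes, not starting at 0) for ZIC2 to ZIC5, ZIC1 to ZIC4 and ZIC2 to ZIC1 in each library, with circles for batch 1, squares for batch 2 and a bar for the mean and SD of 5 libraries. The ZIC2 to ZIC1 ratio is higher in every HHH library than in every general one, and the ZIC2 to ZIC5 ratio spans only 1.48 to 1.85.

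After subtraction of batch means, log2 CPM of ZIC2 and ZIC5 correlated at r = 0.904 over the 10 libraries, ZIC1 and ZIC2 at 0.708, and ZIC1 and ZIC5 at 0.569. These are descriptions over libraries that share their population, their depth and their scaling. Among 13243 protein-coding genes at 1 CPM or more, the genes most like ZIC1 were RGS5, a regulator of G protein signalling (r = 0.990), MAF, a leucine zipper transcription factor (r = 0.983), and NDRG2 (r = 0.980). Since the measure of likeness includes the difference between populations, it sets the direction of these genes, and their levels are given without a test. RGS5 averaged 40.8 CPM in general and 21.5 in HHH, MAF 6.44 and 3.72, and NDRG2 15.4 and 9.51. Most like ZIC2 were the orphan receptor GPR173 (r = 0.994), SAMD1 (r = 0.969) and LTBP4, which binds latent TGF-beta (r = 0.968), with log2 fold changes of -0.22, -0.24 and -0.42. Most like ZIC5 were the ribonuclease gene RNASEK (r = 0.979), the proapoptotic BCL2L11 (r = 0.976) and the exchange factor ARHGEF26 (r = 0.955), at -0.09, -0.12 and -0.14.

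The genes around the pairs were also listed. Within 500 kb of ZIC1 and ZIC4, 8 other genes were counted and none passed the filter. Of these, ENSG00000239922 reached 5 counts in a library, ENSG00000243620 reached 2 and the antisense RNA ZIC4-AS1, which overlaps ZIC4, reached 1. Within 500 kb of ZIC2 and ZIC5, 7 of 15 other genes were tested, with a median log2 fold change of -0.12 against 0.02 over all tested genes. Only PCCA, a subunit of propionyl-CoA carboxylase, was called lower, from 56.1 ± 8.07 to 45.2 ± 10.8 CPM (log2 -0.33, adjusted p = 0.0377, and 0.101 with the replicate block). Its adjusted p rose to 0.109 without HHH replicate 2 of batch 1, and it passed in 3 of 10 fits with a library left out. Over all tested genes 3.89% were called lower.

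Proteins that bind ZIC factors or carry related fingers were described by lists. Over all tested genes 915, or 3.89%, were called lower and 458, or 1.94%, were called higher. Of 3 partner genes, MDFIC, a protein with the MyoD family inhibitor domain through which ZIC proteins are bound, was higher in HHH, at 19.6 ± 3.99 against 12.5 ± 4.09 CPM (log2 0.68, adjusted p = 0.00108). Its relative MDFI was at 0.32 (adjusted p = 0.108) and TCF7L2, a nuclear effector of WNT signalling, at -0.18 (adjusted p = 0.377). Of the 6 GLI and GLIS relatives 5 were tested, all with a negative fold change in the pooled fit. Their median was -0.24, against 0.02 over all tested genes, and the share of all tested genes with a negative fold change was not determined. In batch 1 alone GLI2, GLIS2 and GLIS3 were at 0.30, 0.25 and 0.05, and in batch 2 alone at -0.55, -0.53 and -0.31. The interaction of batch and population passed for GLI2 (adjusted p = 0.0248) and not for the other 4 (adjusted p 0.132 to 0.799). GLI1, a factor and target of Hedgehog signalling, was called lower, from 13.7 ± 1.72 to 9.17 ± 0.771 CPM (log2 -0.57, adjusted p = 0.00331). GLI3 was at -0.37 (adjusted p = 0.0798, and 0.0442 with the replicate block).

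Of 14 genes of the Hedgehog pathway 11 were tested, 2 were called lower and none higher, and the median was -0.14. Over all tested genes 3.89% were called lower. BOC, a co-receptor, went from 5.55 ± 0.818 to 3.75 ± 0.388 CPM (log2 -0.56, adjusted p = 0.0129). HHIP, a decoy for the ligands, went from 0.917 ± 0.432 to 0.506 ± 0.128 CPM (-0.81, adjusted p = 0.0438, reaching 0.126 without HHH replicate 1 of batch 2), and passed in 2 of 10 fits with a library left out. PTCH1 was not called (-0.35, adjusted p = 0.157), with 0.14 in batch 1 alone and -0.69 in batch 2 alone. Its interaction of batch and population passed (adjusted p = 0.0408). The ligand genes SHH, IHH and DHH reached at most 5, 3 and 3 counts in a library.

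The NuRD complex, a chromatin remodeller and deacetylase that ZIC2 is known to meet in embryonic stem cells, was abundant in both populations. All 14 genes were tested, 1 was called lower, none was called higher, 13 did not pass, and the median was -0.07. Of all tested genes 3.89% were called lower. MTA3 went from 123 ± 30.0 to 98.1 ± 21.2 CPM (log2 -0.31, adjusted p = 0.0250, reaching 0.0953 without HHH replicate 2 of batch 2), and passed in 6 of 10 fits with a library left out. CHD3, a remodelling ATPase, was at -0.46 with an adjusted p of 0.0910, and 0.00239 with the replicate block.

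Among 16 genes of the neural plate border and neural crest, 8 were tested, 1 was called lower and 2 higher, with a median of 0.21. Of all tested genes 3.89% were called lower and 1.94% higher. All 8 genes of the list that did not pass the filter had a lower mean CPM in HHH. The share was 55.9% among all 9782 untested genes with over 3 counts in at least 1 library. DLX6 and TWIST1, with at most 3 and 4 counts in a library, were at or near the floor. The median thus covers only the more abundant genes of the list. GBX2, a homeobox gene of the midbrain-hindbrain boundary, was higher (0.887 ± 0.274 to 1.90 ± 0.682 CPM, log2 1.12, adjusted p = 0.00881). FOXD3, which acts in neural crest and in pluripotent cells, was higher (10.8 ± 1.28 to 15.2 ± 5.67 CPM, log2 0.44, adjusted p = 0.0391). Its adjusted p was 0.126 with the replicate block and 0.0942 without HHH replicate 2 of batch 1. It passed in 3 of 10 fits with a library left out. SOX10, a neural crest factor, was lower (1.79 ± 0.548 to 0.973 ± 0.175 CPM, log2 -0.84, adjusted p = 0.0190, and 0.0689 without HHH replicate 2 of batch 2). SOX10 passed in 5 of 10 fits with a library left out. Of 13 genes of the dorsal neural tube and cerebellum, 11 did not pass the filter. The other 2, LMX1B and MEIS2, reached 10 counts in all 5 general libraries and in 0 and 1 HHH libraries, so they passed through the population in which they are high, and no count of calls is drawn from this list. LMX1B, a homeobox gene of the roof plate and the isthmus, went from 0.420 ± 0.0822 to 0.0689 ± 0.0268 CPM (log2 -2.56, adjusted p = 0.00015). MEIS2 went from 0.326 ± 0.160 to 0.101 ± 0.0644 CPM (log2 -1.66, adjusted p = 0.0362, with 0.0595 under the replicate block and 0.114 without general replicate 1 of batch 2). MEIS2 passed in 3 of 10 fits with a library left out.

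**Figure D4:**
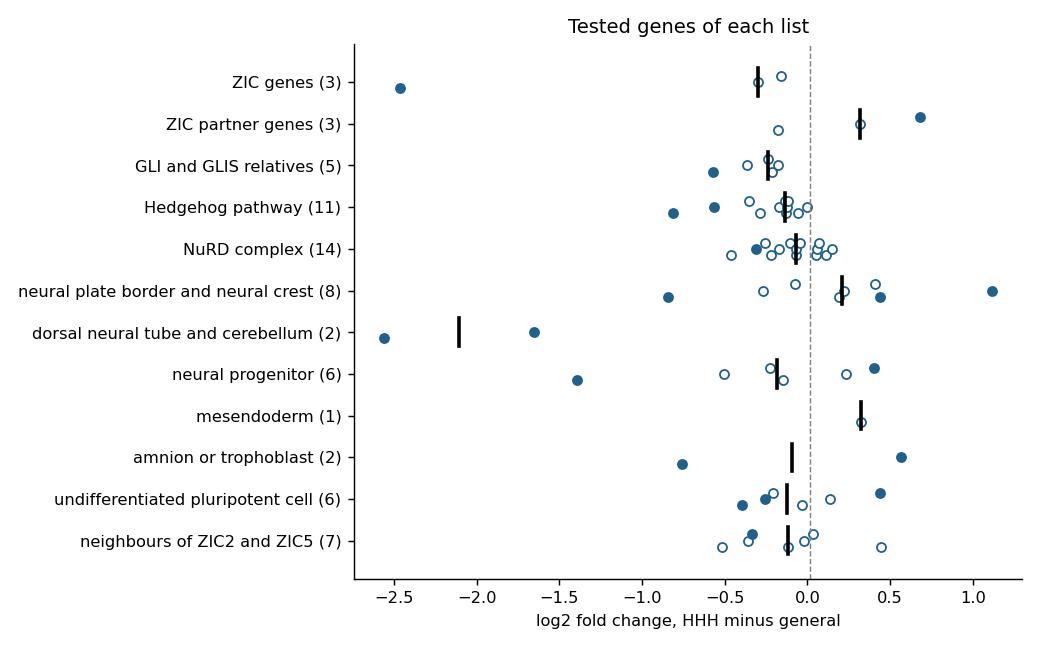
Log2 fold change of HHH minus general (horizontal axis) for the tested genes of each list, with their number in parentheses, filled where the adjusted p was under 0.05. Black bars are the medians of the lists and the dashed line is the median over all tested genes, 0.02. The points furthest to the left are ZIC1, LMX1B and MEIS2, which passed the filter on low counts through the general population, where they are high. LMX1B and MEIS2 are the only tested genes of the dorsal neural tube list, so nothing is concluded from its median.

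Markers of other cell types were measured beside these changes, and their part in the ZIC values was not tested. Of all tested genes 3.89% were called lower and 1.94% higher. Of 11 neural progenitor markers 9 had a lower mean CPM in HHH, and the matching share over all tested genes was not determined. Among the 9 were all 5 markers that did not pass the filter. Of all 9782 untested genes with over 3 counts in at least 1 library, 55.9% were lower. Among these 5 markers, HES5 was at 0.103 CPM in both populations and NR2F1 reached at most 1 count, so their direction carries little weight. SIX3, another of the 5, was at 0.516 ± 0.262 CPM in general and 0.0209 ± 0.0310 in HHH. Of the 6 that were tested, SOX1 was lower (0.389 ± 0.161 to 0.149 ± 0.0624 CPM, log2 -1.39, adjusted p = 0.0391) and SOX3 was higher (17.8 ± 4.80 to 24.6 ± 11.2 CPM, log2 0.41, adjusted p = 0.0350, and 0.0822 with the replicate block). Their adjusted p reached 0.123 and 0.112 without HHH replicate 2 of batch 2, and they passed in 2 and 3 of 10 fits with a library left out. SOX1 reached 10 counts in 4 general libraries and 1 HHH library, so it passed the filter mainly through the population in which it is high. PAX6 was at 0.960 ± 0.169 and 0.862 ± 0.135 CPM (adjusted p = 0.665). The summed level of the list, which NES dominates, was 215 to 282 CPM in general and 152 to 292 in HHH, and 8 of the 11 were under 1 CPM in both populations. The 4 mesendoderm markers summed to 0.553 to 1.16 CPM in general and 0.549 to 0.902 in HHH, the highest being MIXL1 at 0.397 ± 0.0983 and 0.495 ± 0.0856 CPM and TBXT at 0.350 ± 0.187 and 0.102 ± 0.0455. The 4 endoderm markers summed to 0.0333 to 0.922 and 0.0354 to 1.72 CPM, led by FOXA2 at 0.220 ± 0.385 and 0.657 ± 0.801, with SOX17 at 0.0201 ± 0.0145 and 0.0229 ± 0.0143. The 6 amnion or trophoblast markers summed to 8.21 to 13.2 and 7.55 to 11 CPM, with KRT7 lower (log2 -0.76, adjusted p = 0.00149) and GABRP higher (0.57, adjusted p = 0.0136). Of the 6 markers of undifferentiated pluripotent cells, NANOG was higher (32.5 ± 3.62 to 44.2 ± 3.75 CPM, log2 0.44, adjusted p = 0.00572), and PODXL (-0.40, adjusted p = 0.0306) and SOX2 (-0.26, adjusted p = 0.0375, and 0.0773 with the replicate block) were lower. The adjusted p of PODXL and SOX2 reached 0.0930 and 0.127 without HHH replicate 2 of batch 2, and they passed in 3 and 2 of 10 fits with a library left out. The summed level of the 6 markers was 3928 to 6065 CPM in general and 3751 to 5256 in HHH. No more than 3 counts in any library were found for 1 of the neural progenitor markers (NR2F1), 3 of the endoderm markers (SOX17, GATA4 and GATA6) and 1 of the amnion or trophoblast markers (HAND1).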

How the data were processed

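The authors deposited whole-number counts per Ensembl gene for 10 RNA-seq libraries, and these were used as the main data. A second table the authors deposited holds log2 values, treated as a score, which its name describes as RPKM after TMM, and whose batch means agree to within 9.24e-14, so that batch had been removed. The submitters' processing notes name CASAVA 1.8.2, R 3.2.2, limma 3.26.9 and GRCh37. The aligner, counter and annotation are not given in the sources used here. Symbols came from GENCODE 44, which matched 88.5% of identifiers. Unmatched ones took 7.44% to 20.3% of the counts of a library and were kept.

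Population, batch and replicate came from sample titles. Genes were kept by filterByExpr (minimum count 10), scaled by TMM and tested by quasi-likelihood in edgeR 4.0.16 (R 4.3.3; batch plus population, two-sided, Benjamini-Hochberg over all tested genes, called at adjusted p under 0.05). Standard errors (SE) are the log2 fold change over the square root of its F. The step was tested on simulated data. At this depth 1 count stood for 0.0153 to 0.0229 CPM. Per-length levels divide CPM by exonic length in GENCODE 44. Alternatives were other scalings and filters, DESeq2 1.42.0, limma 3.58.1 with voom or on the deposited log2 values, no batch term, each batch alone, each library left out, and an exact permutation test added after the data had been seen.

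Within a batch, 4 HHH libraries share their number with a general library. Deviations from the mean of population and batch correlated at 0.102 in batch 1, where the size of the correlation is the same for every pair by construction, and at 0.232, 0.136 and 0.116 in batch 2. All exceeded 0.1, so the fit with the replicate block is given where it changes a call. The pairing rests on these correlations and not on a label.

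Named genes were the 4 ZIC genes, of each list at most the 4 called genes with the smallest p in each direction, or the 2 with the highest mean CPM where none was called, and the 3 genes most like each tested ZIC gene. A few others (such as GLI3, PTCH1, CHD3, POU5F1, LIN28A, PAX6, HES5, DLX6, TWIST1, MDFI and TCF7L2) were named after their values were seen. Members and lists were chosen with earlier results of these data known. A gene of the Hedgehog list is not reported here and was left out of the counts of that list. Promoter sequences are from RefSeq (GRCh38.p14), in which all 4 genes were matched.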

Additional observations from a re-analysis of the deposited data

Results flagged for a closer look

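The log2 ratio of ZIC2 to ZIC5 in general replicate 2 of batch 2 was 1.69, apart from the other 4 general libraries, which lay between 1.81 and 1.85. Its gap to the nearest of them was 0.749 of the range of the group, above the critical value of 0.710 for 5 samples. Chance gives such a gap in about 1 of 20 groups, and 14 quantities were examined. Without this library the difference of the ratio between populations was -0.18 (exact permutation p = 0.0333).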

How the results depend on the processing

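The number of called genes, 1373, was 168 with no batch term, 2423 with no filter, 136 with batch 1 and 3166 with batch 2 on its own, and 808 (without HHH replicate 2 of batch 2) to 2347 (without HHH replicate 3 of batch 1) with a library left out. The deposited log2 values moved the median over all genes from 0.02 to -0.12 (log2), and relative to that shift ZIC2 (-0.44) and ZIC5 (-0.29) were closer to their values above. ZIC1 was negative under all 22 alternatives, from -2.72 to -1.98 (adjusted p 3.35e-15 to 0.180), and lost its call in batch 1 alone (-1.98), with -2.72 to -2.24 when a library was left out. Neither it nor ZIC4 passed a filter of 1 CPM in 5 libraries. ZIC2 was negative under all 23, and was called with the replicate block (-0.43), with no filter (-0.29, adjusted p = 0.0274) and in batch 2 alone (-0.49), with -0.44 to -0.24 when a library was left out. ZIC5 reversed in batch 1 alone (0.13) and was called in batch 2 alone (-0.35), with -0.24 to -0.11 when a library was left out. ZIC4 was negative under all 20 and passed only by the exact permutation test, unadjusted (-0.97), with -1.08 to -0.82 when a library was left out. Interactions with a library left out ran from -1.13 to -0.38 for ZIC1, -0.74 to -0.12 for ZIC2, 0.042 to 0.48 for ZIC4 and -0.61 to -0.33 for ZIC5. For the ratios, exact permutation tests cannot reach 0.05 in batch 1 alone (smallest p 0.333), in batch 2 alone (0.1) or over 4 blocked pairs (0.125). In that order ZIC2 to ZIC5 was -0.18, -0.13 and -0.19, ZIC1 to ZIC4 was -0.86, -1.80 and -1.62, and ZIC2 to ZIC1 was 1.82, 2.15 and 2.02. With a library left out they ran from -0.20 to -0.093, -1.58 to -1.16 and 1.83 to 2.23. The replicate block changed no other call of a ZIC gene in the fit across genes. ZIC1 and ZIC4 rest on few counts, which limits their precision.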

Other observations

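Of the 97 genes of the 11 lists, 27 had over 3 counts in at least 1 library but did not pass the filter, and 23 of these had a lower mean CPM in HHH and 4 a higher one, with no test. That is 85.2% lower, against 55.9% of all 9782 such genes of the table. The lists were chosen with earlier results of these data known. Some of the 27 were near the floor, such as TWIST1 with at most 4 counts, so the comparison is a description from which nothing is concluded. Chosen after their values were seen, SIX3, a homeobox gene of the anterior neural plate, had 30 and 9 counts in general batch 1 and 26, 38 and 51 in batch 2, against 0 and 0 in HHH batch 1 and 0, 4 and 2 in batch 2. TBXT, a gene of the primitive streak, had 11 and 8 counts in general batch 1 and 28, 31 and 25 in batch 2, against 2 and 3, then 7, 9 and 7, in HHH.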
